A study of Mus musculus with 10 samples.

Results

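The comparison set 5 arrays of the Rspo3 line against 5 arrays of the Evi line, which together are all 10 arrays of the study, and held deletion status as a factor. The members were chosen by mouse line alone. Each array was an Illumina mouse beadchip hybridised with amplified cDNA from lung endothelial cells that had been sorted by flow cytometry at postnatal day 6. All mice were labelled C57/Bl6 and all were homozygous for a floxed allele, either Rspo3fl/fl or Evifl/fl. In the deleted arm the floxed allele was combined with Cdh5CreERT2+, a Cre recombinase driven by the promoter of the endothelial cadherin gene Cdh5, giving 3 Rspo3-iECKO and 2 Evi-iECKO arrays. The Cre-negative arm had the same floxed alleles with Cdh5CreERT2-, giving 2 Rspo3-WT and 3 Evi-WT arrays. These controls are therefore floxed mice without Cre, not wild-type mice. Tamoxifen dosing, pooling of animals and litters are not described in the labels, and each p therefore rests on the variation among these arrays, which may be technical in part.

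The lines were built around 2 steps of Wnt signalling. Evi, encoded by Wls, carries lipid-modified Wnt proteins to the surface of the cell that makes them. Rspo3 is a secreted R-spondin that binds Lgr receptors and removes the ligases Znrf3 and Rnf43 from the membrane, so that Frizzled and Lrp5/6 receptors stay there for longer. In a young lung the endothelium consists of general capillary cells, aerocytes, which are the wide capillary cells of the gas exchange surface, and arterial, venous and lymphatic cells. A difference between the lines can come from breeding, from handling and from the arrays as well as from the cells, and the labels do not separate these sources.

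The arrays themselves differed by line before any normalization. On the 5 Rspo3 line arrays 50.9%, 51.3% and 50.5% (Rspo3-iECKO 1 to 3) and 51.1% and 49.8% (Rspo3-WT 1 and 2) of the 46237 probes were detected, meaning a detection p below 0.05. On the Evi line arrays the shares were 47.5%, 47.0% and 48.6% (Evi-WT 1 to 3) and 46.9% and 46.5% (Evi-iECKO 1 and 2), so no Evi array reached the lowest Rspo3 array. The mean difference within arms was 3.47 percentage points (exact permutation test of the line labels within arms, two-sided p = 0.01, adjusted over 11 measures 0.0183). That p is the smallest that the 100 arrangements allow. The upper end of the intensities separated in the same way, with a 95th percentile of 280 to 366 on Rspo3 arrays and 220 to 253 on Evi arrays and a brightest probe at 18264 to 24091 and 12071 to 16656. The lower end did not separate: the median intensity was 96.5 to 110 and 89.6 to 107 (exact two-sided permutation p = 0.48), and the background mean inferred from the detection p-values was 91.6 to 104 and 86.3 to 102 (p = 0.62). Detection was also uneven at single probes, since 80 probes were detected on every Rspo3 array and no Evi array and 7 the other way round. In the deposited table the header of the detection column reads "p value" for the 5 Rspo3 line arrays and "p-value" for the 5 Evi line arrays. No chip, scan or hybridisation batch is given, so line and any batch cannot be told apart.

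**Figure D1:**
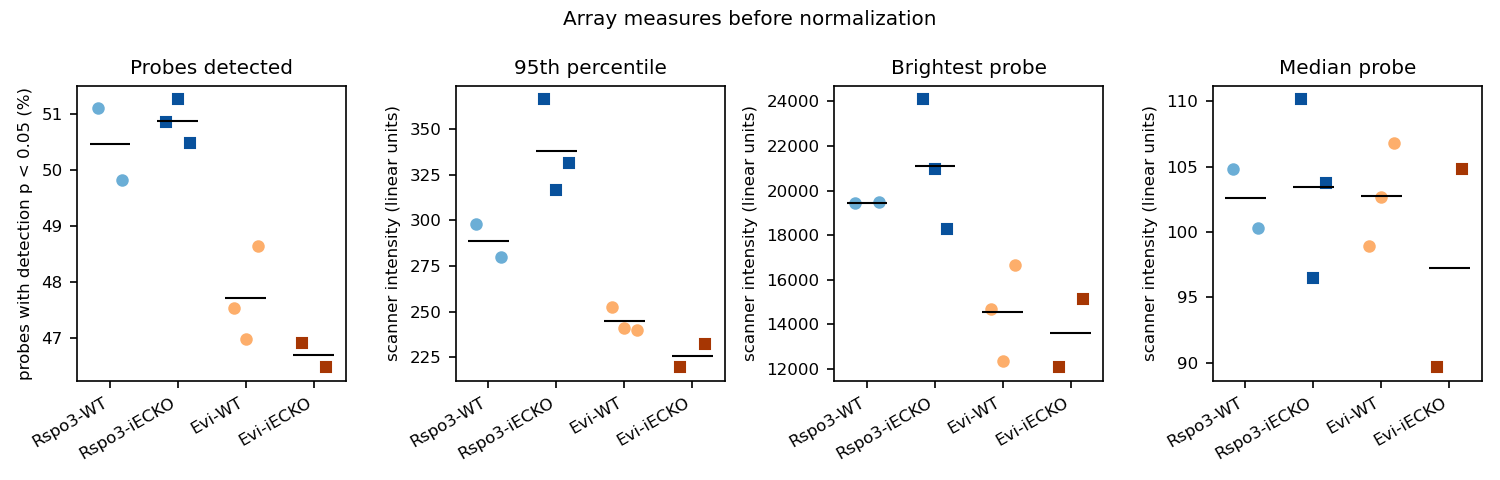
Share of probes detected, 95th percentile, brightest probe and median probe (scanner intensity, linear units) on each array before normalization, by group. Points are arrays and bars are group means; the y axes do not start at 0. The first 3 measures separate the lines in both arms, 49.8% to 51.3% against 46.5% to 48.6% for detection, and the median does not.

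The way the arrays were scaled decided how many genes appeared higher in the Rspo3 line. Across 16144 genes the median difference between lines was 0.09 on log2 of the raw intensities and 0.20 after background correction, and it rose with brightness from 0.03 in the dimmest of 10 equal bins of genes to 0.52 in the brightest. Quantile normalization gives all arrays the same distribution of intensities and brought the median to -0.03. All differences below are therefore relative to the other genes on the array, in log2 units, Rspo3 line minus Evi line, with n = 5 and 5 arrays and the p of limma adjusted by Benjamini-Hochberg over all 16144 genes. Without normalization between arrays 3423 genes were higher on the side of the Rspo3 line and 23 on that of the Evi line, and with median scaling 2574 and 41, against 79 and 45 after quantile normalization. The share of calls that were higher in the Rspo3 line was 99.3%, 98.4% and 63.7% in these settings. The bins are numbered from 1, the dimmest, to 10. In the first 2 settings a list's distance from the median of all genes therefore also varies with how bright its genes are.

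The first principal component, with 20.8% of the variance, separated the lines without overlap, with scores of -19.9 to -12.7 for Rspo3 arrays and 9.88 to 27.9 for Evi arrays. The second, with 18.9%, spread the Evi line alone, from -26.5 on Evi-iECKO 1 to 35.0 on Evi-iECKO 2. Rspo3 arrays correlated with each other at r = 0.967 to 0.975 across genes, and Evi arrays at 0.931 to 0.962, no closer than the 0.940 to 0.963 between lines. The within-group standard deviation had a median over genes of 0.193 for Rspo3 arrays and 0.249 for Evi arrays, and it was larger in the Evi line for 65.3% of genes.

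**Figure D2:**
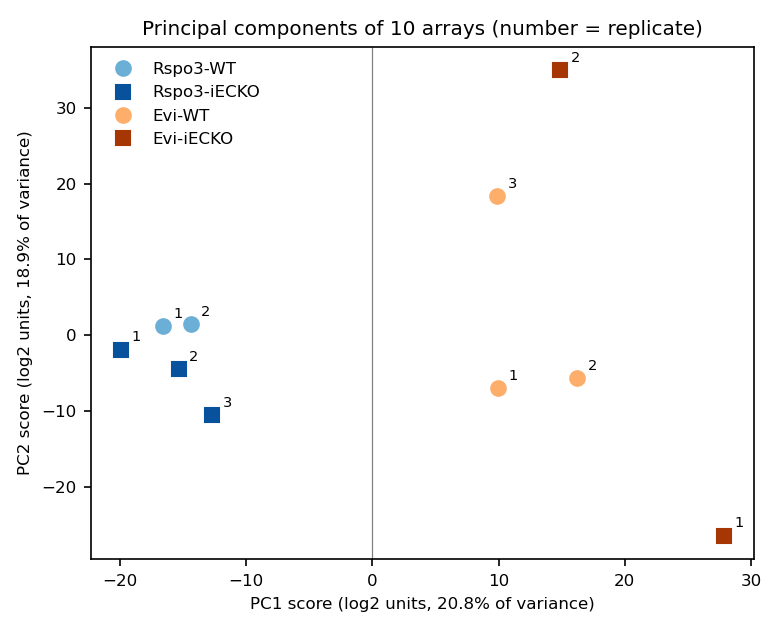
Scores of the 10 arrays on the first 2 principal components of the normalized log2 values, with the share of variance on each axis and the replicate number beside each point. The Rspo3 line lies left of 0 and the Evi line right of it on PC1, and Evi-iECKO 1 and 2 lie at opposite ends of PC2.

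The labels were checked against their genes. Cdh5 and Pecam1, which encode junction proteins found in endothelium of every kind, were bright on all 10 arrays, Cdh5 at 8.81 to 9.74 and Pecam1 at 8.91 to 10.19. Cdh5 differed by 0.29 between the lines (SE 0.17, limma adjusted p = 0.442). Wls was lower on Evi-iECKO 1 and 2, at 4.85 and 4.68, than on the Evi-WT arrays, at 5.68, 6.21 and 5.69. On the Rspo3 line arrays Wls lay at 4.96, 5.76 and 5.84 (Rspo3-iECKO) and 5.85 and 5.55 (Rspo3-WT), and it did not pass between lines (0.30, SE 0.22, limma adjusted p = 0.559). Neither of the 2 probes of Rspo3 was detected on any Rspo3 line array, and 1 of them was detected on Evi-WT 3 alone, so Rspo3 was not among the tested genes and its deletion could not be checked here. Female and male samples were present in both lines. Xist, the RNA of the inactive X chromosome, was at 8.40 to 8.85 on Rspo3-iECKO 1, Rspo3-WT 2, Evi-WT 1 and Evi-iECKO 2 and at 4.25 to 5.0 on the other 6 arrays, and the Y-linked Eif2s3y was at 4.12 to 4.22 and 6.10 to 7.50 on the same sets.

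Between the lines 124 of 16144 genes passed at an adjusted p below 0.05 (0.768%), 79 higher in the Rspo3 line (0.489%) and 45 higher in the Evi line (0.279%). On 105 of them the 5 arrays of one line did not overlap the 5 of the other, which held for 625 of all genes (3.87%). At an unadjusted p below 0.05 the lines differed in 2442 genes (15.1%), 1160 higher in the Rspo3 line (7.19%) and 1282 higher in the Evi line (7.94%). The differences of the genes that passed lay between 0.54 and 2.19 in size, which is 1.45-fold to 4.57-fold. Of the 79 genes higher in the Rspo3 line, 11 were not detected on any Evi array (13.9%, against 3.66% of all genes tested), and of the 45 higher in the Evi line, 1 was not detected on any Rspo3 array. The count depended on single arrays: it was 34, 47 and 66 without Rspo3-iECKO 1, 2 and 3, 42 and 71 without Rspo3-WT 1 and 2, 58 without Evi-WT 2 and 67 without Evi-iECKO 1. It was 105, 123 and 151 without Evi-WT 1, Evi-WT 3 and Evi-iECKO 2.

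Taken arm by arm, few genes passed. In the Cre-negative arm 6 genes passed (0.0372%), with Pfn1, Psmd2, H2ac13 and H2bc15 higher in Rspo3-WT (0.0248%) and Polg2 and Neurl higher in Evi-WT (0.0124%). In the deleted arm 4 passed (0.0248%), with Dock11, Pfn1 and Rab18 higher in Rspo3-iECKO (0.0186%) and Cdc42ep3 higher in Evi-iECKO (0.00619%). Dock11 was near background on Evi-iECKO 1 and 2, at 4.27 and 4.21, and its second probe, detected on 9 arrays, differed by -0.02 between lines. Cdc42ep3 was dim on Rspo3-iECKO 1 to 3, at 4.31, 4.59 and 4.49. Between lines the call of each was kept in 9 of 14 alternative settings with all arrays. The Cre-negative count fell to 0 or 1 without any Rspo3 array, Evi-WT 2 or Evi-WT 3, and was 9 without Evi-iECKO 1 or 2. The count of the deleted arm fell to 0 or 1 without any Rspo3 array, and was 109 without Evi-iECKO 1 and 76 without Evi-iECKO 2. Leaving out an array of Evi-iECKO or of Rspo3-WT leaves 1 in that group, which is then assumed to vary like the other groups. No gene passed for the difference between the arms (0%), where the smallest adjusted p by limma was 0.146, and 979 genes had an unadjusted p below 0.05 (6.06%). Without Evi-iECKO 1, 6 genes passed at an adjusted p below 0.05 and 1620 had an unadjusted p below 0.05.

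The arms share no array, so the line difference could be read in each on its own, with 1 estimate of spread for both. Of 1422 genes with an unadjusted p below 0.05 in the Cre-negative arm (8.81%), 1065 had the same direction in the deleted arm (74.9%), 367 of them also with an unadjusted p below 0.05, while 42 reached it in the opposite direction. Of 2148 such genes in the deleted arm (13.3%), 1549 had the same direction in the Cre-negative arm (72.1%). Over all genes 59.9% had the same direction in both arms, and the differences of the arms correlated at r = 0.328 (Spearman 0.282) across 16144 genes, which share arrays and are not independent. All 124 genes that passed had 1 direction in both arms and an unadjusted p below 0.05 in each, in a test that averages the arms.

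**Figure D3:**
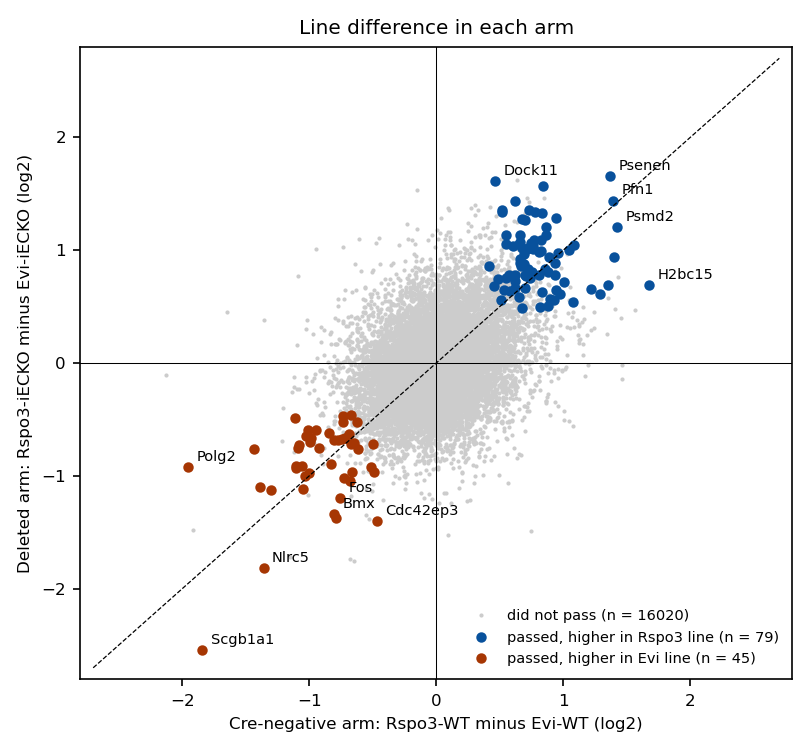
Difference between lines in the Cre-negative arm (x, Rspo3-WT minus Evi-WT) and in the deleted arm (y, Rspo3-iECKO minus Evi-iECKO), log2, for 16144 genes, with the 79 genes that passed higher in the Rspo3 line in blue, the 45 higher in the Evi line in brown and equality as a dashed line. Passed genes have 1 sign on both axes, and Dock11 and Cdc42ep3 stand farther from the dashed line than Pfn1.

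The gene with the smallest p was Pfn1, which encodes profilin 1, a protein that delivers actin monomers to growing filaments. Its level was 8.09, 8.06 and 7.86 on Rspo3-iECKO 1 to 3 and 7.71 and 7.62 on Rspo3-WT 1 and 2, against 6.43, 6.22 and 6.16 on Evi-WT 1 to 3 and 6.35 and 6.78 on Evi-iECKO 1 and 2. The lines did not overlap and differed by 1.42 (SE 0.13, 2.67-fold, limma adjusted p = 5.81e-04), with 1.39 in the Cre-negative arm and 1.44 in the deleted arm. A dimmer probe of Pfn1 differed by 0.44 in the same direction. Psmd2, a subunit of the regulatory cap of the proteasome, was at 5.58, 5.77 and 5.21 on the Rspo3-iECKO arrays and 5.68 and 5.66 on the Rspo3-WT arrays. On the Evi arrays it was not well above background, at 4.38, 4.15, 4.21, 4.48 and 4.15. It was therefore at least 2.31-fold higher in the Rspo3 line (limma adjusted p = 0.00197), a bound taken against the lowest detected signal of each Evi array. A further probe of Psmd2 differed by 0.63.

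The other genes of smallest p with higher levels in the Rspo3 line had varied roles. Psenen, a subunit of the gamma-secretase that cleaves Notch and amyloid precursor protein, differed by 1.51 (SE 0.22, limma adjusted p = 0.0116) and was detected on 2 of the 5 Evi arrays. Vdac3, a channel of the outer mitochondrial membrane, was at 6.42 to 7.0 on Rspo3 and 5.59 to 5.90 on Evi arrays (0.90, SE 0.13). Mtch2, a protein of the same membrane, differed by 1.11 (SE 0.17), but 2 further probes of Mtch2 differed by 0.17 and 0.25 and the calls of Mtch2 and Vdac3 were lost when all probes of a gene were averaged. Prdx3, the peroxiredoxin of mitochondria, was undetected on all Evi arrays and at least 1.91-fold higher. Rab18, a small GTPase of lipid droplets and the endoplasmic reticulum, differed by 1.21 (SE 0.18), with 0.84 in the Cre-negative and 1.57 in the deleted arm. Meaf6, a subunit of histone acetyltransferase complexes, and Septin8, a filament-forming GTPase, were likewise undetected on all Evi arrays and at least 1.85-fold and 1.77-fold higher. Caml, Paqr7 and Cdk5rap2 completed the 15 genes of smallest p in this direction, symbols that only number a clone being passed over, together with 2 histone genes and Wif1, which are described below. Caml differed by 0.91 and was detected on every array. Paqr7 was detected on 1 Evi array and Cdk5rap2 on 2, so their differences of 0.91 and 0.87 rest on Evi values mostly not above background. Of these 15, the calls of Pfn1, Psmd2, Meaf6, Septin8, Paqr7, Caml, Rab18, Prdx3, Cdk5rap2, H4c4 and H2ac13 were kept in all 24 of the alternative settings and left-out arrays tried at the same threshold. Psmd2, Meaf6, Septin8 and Prdx3 passed the filter through Rspo3 arrays alone. Their kept calls, and those of Paqr7 and Cdk5rap2, rest on Evi values at or near background.

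In the opposite direction the smallest p belonged to Hspa2, a chaperone of the Hsp70 family. It was at 7.14, 6.73 and 6.90 on Rspo3-iECKO 1 to 3 and 6.65 and 6.87 on Rspo3-WT 1 and 2, and within 7.82 to 7.92 on all 5 Evi arrays. The lines did not overlap (-1.02, SE 0.13, limma adjusted p = 0.00659), and the call was kept in 23 of 24 settings. Polg2, the accessory subunit of the mitochondrial DNA polymerase, was at 5.55, 6.24 and 5.45 on Rspo3-iECKO and 4.97 and 5.04 on Rspo3-WT arrays. On the Evi arrays it was at 7.13, 6.71, 7.03, 6.76 and 6.58 (-1.44, SE 0.21, limma adjusted p = 0.0116), and a second bright probe of Polg2 differed by -1.30. The difference was -1.95 in the Cre-negative and -0.92 in the deleted arm. Slc16a13, a monocarboxylate transporter, differed by -1.21 (SE 0.18) and its second probe by -0.83. Kcnk5, a potassium channel of the two-pore family, differed by -1.24 (SE 0.17) with overlapping arrays. Agpat2, an enzyme of phospholipid and triglyceride synthesis, Arhgef7, an exchange factor for Rac and Cdc42, and Fgd6, another exchange factor for Cdc42, differed by -0.90, -0.87 and -0.71. The calls of Agpat2 and Fgd6 were lost without Rspo3-WT 1, that of Agpat2 also without Rspo3-iECKO 1, and both were lost without normalization between arrays and with median scaling. Akr7a5, an aldo-keto reductase, differed by -0.99 at its brightest probe and by -0.14 and 0.34 at its others, and its call was lost with the mean of all probes and without Rspo3-WT 1. With clone symbols such as 2310004H21Rik (-1.08, limma adjusted p = 0.0166) passed over, the remaining genes of smallest p described here were H2-M10.3 (-0.86), a class Ib histocompatibility gene, Cplx2 (-0.86), a regulator of vesicle fusion detected on 2 Rspo3 arrays, and Trim69 (-1.08), whose call was lost without Rspo3-iECKO 1 or Rspo3-WT 1. Of the 124 genes that passed, 46 had further probes past the filter. The direction of the reported probe was shared by 48 of these 66 probes, 21 of them with an unadjusted p below 0.05, and none of the 18 in the opposite direction reached that p.

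**Figure D4:**
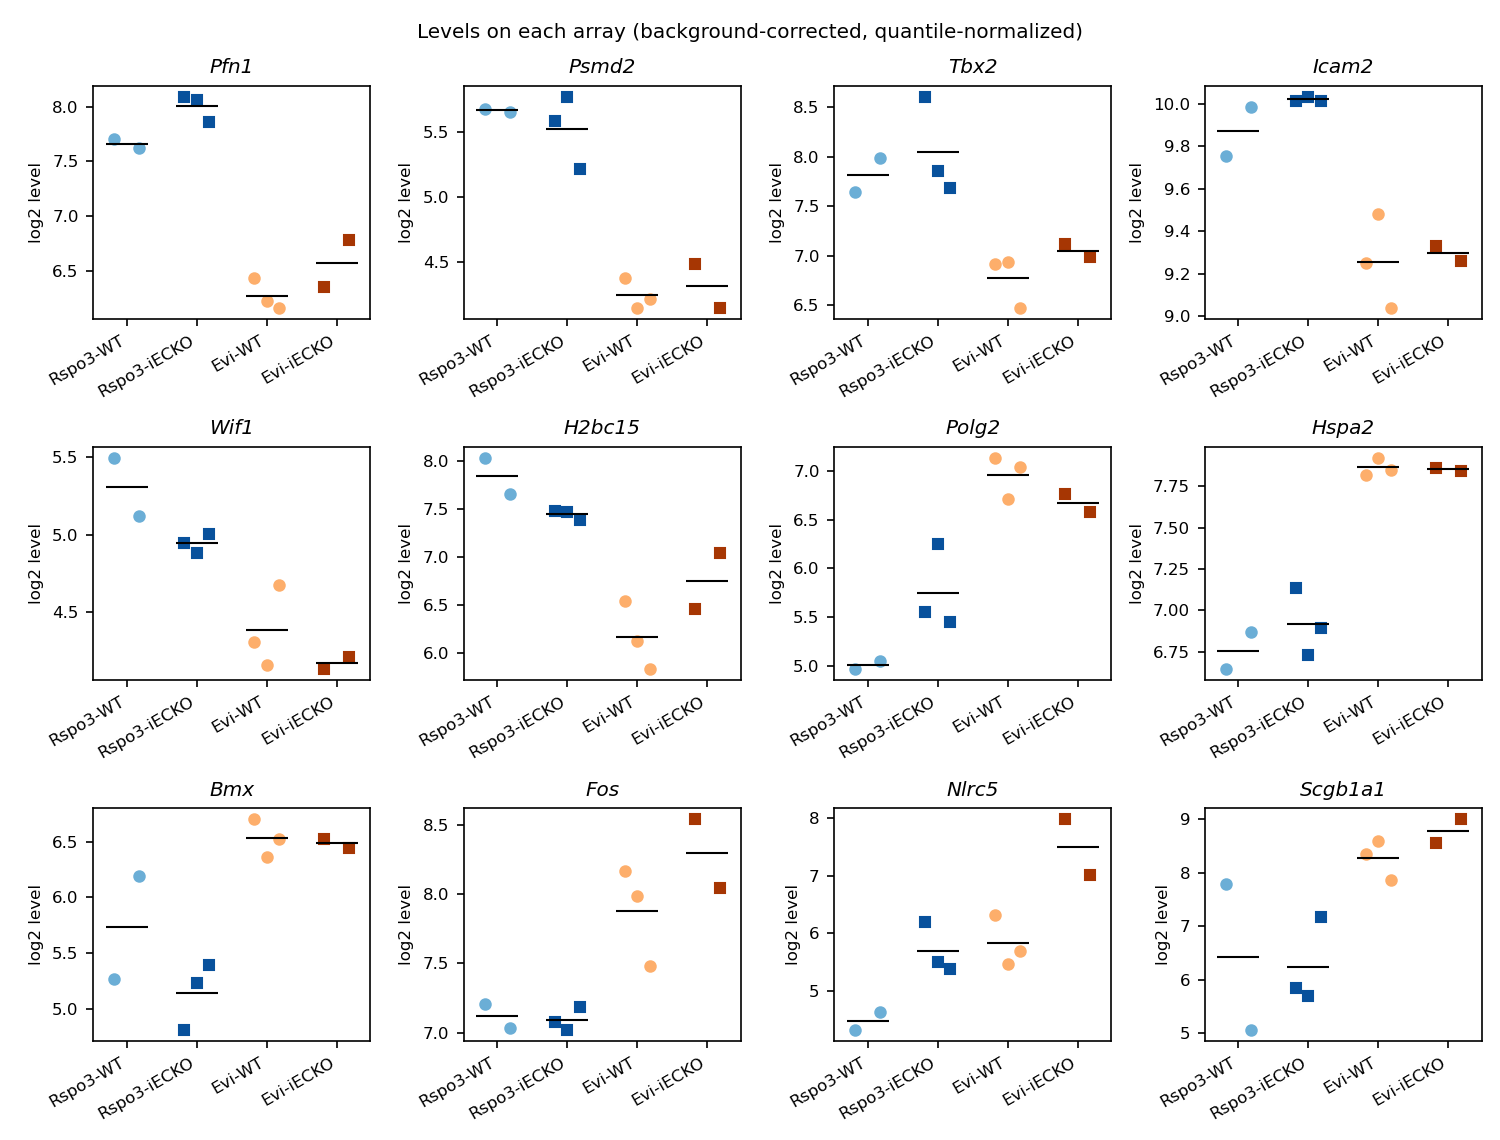
Log2 levels of 12 genes on each array (background-corrected, quantile-normalized) by group, with points for arrays and bars for group means. Pfn1, Psmd2, Tbx2, Icam2, Wif1 and H2bc15 are higher on every Rspo3 array than on every Evi array, Polg2, Hspa2, Bmx, Fos and Scgb1a1 are lower, and Nlrc5 overlaps.

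Replication-dependent histone genes, which supply the nucleosomes of newly copied DNA, were the list with the most members that passed. Of 42 genes on the list 39 were measured, 34 were higher in the Rspo3 line, 7 passed, all higher in the Rspo3 line, and 25 had an unadjusted p below 0.05 in that direction (7.19% of all genes did). The median difference was 0.50, against -0.03 over all genes. This list, like the others, was chosen with earlier results of these data known, so its counts are a description and not a test. H4c4 was at 8.37, 8.22 and 8.28 on Rspo3-iECKO 1 to 3 and 8.56 and 8.49 on Rspo3-WT, and at 7.26, 7.10, 7.02, 6.86 and 7.85 on the Evi arrays (1.17, SE 0.18, limma adjusted p = 0.0129). H2ac13 differed by 1.02 (SE 0.16), H2bc15 by 1.19 (SE 0.21) and H3c1 by 0.86 (SE 0.16). The calls of H2bc15 and H3c1 were lost without Rspo3-iECKO 1, Rspo3-WT 1 or Evi-WT 2, that of H2bc15 also without Rspo3-WT 2 or Evi-iECKO 1, and that of H3c1 also without Rspo3-iECKO 3. Of the 5 histone genes higher in the Evi line, H2bc4 was the only 1 without overlap, with a difference of -0.36 (limma adjusted p = 0.149). H2bc4 was singled out after its values were seen. The list's median was 0.86 in the Cre-negative arm and 0.20 in the deleted arm, and 17 of the 39 genes had an unadjusted p below 0.05 for the difference between arms (6.06% of all genes did), none of which passed. All 7 genes that passed are on chromosome 13, where 36 of the 39 measured genes lie.

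The cell cycle lists held no gene that passed. Among 24 genes of replication and S phase 14 were higher in the Rspo3 line, none passed and the median was 0.07, and among 21 mitosis genes 11 were higher, none passed and the median was 0.01. At an unadjusted p below 0.05 these lists held 5 and 3 genes, against 15.1% of all genes. The mean centred level of the histone list was 0.57 and 0.29 on Rspo3-WT 1 and 2, 0.17, 0.05 and 0.17 on Rspo3-iECKO 1 to 3, -0.11, -0.49 and -0.51 on Evi-WT 1 to 3 and -0.25 and 0.10 on Evi-iECKO 1 and 2, so that Evi-iECKO 2 lay within the Rspo3 range. The replication list stood at 0.14 and -0.08 on Rspo3-WT 1 and 2 and 0.08, 0.15 and 0.11 on Rspo3-iECKO 1 to 3. On the Evi arrays it stood at 0.09, -0.23 and -0.35 (Evi-WT 1 to 3) and 0.04 and 0.06 (Evi-iECKO 1 and 2). Its part in the histone difference was not tested.

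Interferon response genes mostly had higher mean levels in the Evi line, although 1 passed. Of 35 genes 30 were measured, 28 of them with a negative difference, and 11 had an unadjusted p below 0.05, all higher in the Evi line (7.94% of all genes were), with a median of -0.30. Parp14, an interferon-induced ADP-ribosyltransferase, passed at -0.99 (SE 0.18, limma adjusted p = 0.025), with levels of 7.82, 7.97 and 7.15 on Rspo3-iECKO and 7.06 and 6.52 on Rspo3-WT arrays against 7.93, 7.72 and 7.89 on Evi-WT and 8.77 and 8.35 on Evi-iECKO arrays. Its lines overlapped, its call was lost without Rspo3-iECKO 1, Rspo3-WT 2 or Evi-iECKO 1, and a dimmer probe differed by 0.27. Igtp, an immunity-related GTPase, differed by -0.85 (limma adjusted p = 0.0603), Oasl2 by -0.67 (0.083) and Ifit3 by -1.20 (0.088). Nlrc5, the activator of class I histocompatibility genes and itself induced by interferon, passed outside the list at -1.59 (SE 0.24), with 6.20, 5.49 and 5.37 on Rspo3-iECKO, 4.31 and 4.62 on Rspo3-WT, 6.32, 5.45 and 5.69 on Evi-WT and 8.0 and 7.02 on Evi-iECKO arrays. Within each arm every Evi array exceeded every Rspo3 array for Nlrc5, whereas across arms the lines overlapped. The call of Nlrc5 was lost without background correction, with the authors' normalized values, without the filter on dim probes and with line alone in the model.

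The interferon level was also uneven between the arms, which was not tested. Its mean centred level was -0.49 and -0.45 on Rspo3-WT 1 and 2 and -0.00, -0.30 and -0.09 on Evi-WT 1 to 3, and it was 0.35, 0.15 and -0.12 on Rspo3-iECKO 1 to 3 and 0.58 and 0.37 on Evi-iECKO 1 and 2. The Evi arrays were above the Rspo3 arrays in each arm. Without normalization between arrays the list's median was 0.03 and with median scaling -0.04, but in both it lay 0.18 below the median of all genes.

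Promoters of the list were searched for the core of the interferon-stimulated response element, GAAA and GAAA with any 2 bases between them, on both strands of the 250 bases before the start of each gene in the RefSeq table (GRCm38.p6). Of the 30 measured genes 21 had a promoter there and 13 of these held the core (61.9%), against 936 of 27025 genes of the table (3.46%). The 13 genes had a median difference between lines of -0.49 and the 8 without the core one of -0.09, which is a description and not a test. In direction the groups were alike, with 12 of the 13 and 7 of the 8 higher in the Evi line. Measured genes without a promoter there, Parp14 among them, are in neither group. Igtp and Ifit3 are shown because they carry the core among the 4 genes of smallest p on the list, Igtp at chr11:58199456-58199555 on the plus strand and Ifit3 at chr19:34583353-34583528 on the plus strand, both ending at the base before the annotated start. H2bc14, a histone gene that passed (0.81, SE 0.16, limma adjusted p = 0.0388, with a call kept only without Evi-WT 1 or Evi-iECKO 2 among the fits with 1 array left out, and lost without the filter on dim probes and with the replicate block), is shown for the octamer ATTTGCAT, found in 4 of the 8 measured H2B genes with a promoter and in 526 of 32851 promoters (1.60%), at chr13:21721944-21722043 on the plus strand. Counted by gene, the octamer was in 490 of 27025 genes of the table (1.81%) and in 4 of the 27 other measured histone genes with a promoter (14.8%). H2bc14 was picked for that match. Capitals mark the match, on the minus strand in Ifit3, which holds 2.
Igtp: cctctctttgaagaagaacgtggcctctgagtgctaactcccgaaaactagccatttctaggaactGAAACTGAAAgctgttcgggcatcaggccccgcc
Ifit3: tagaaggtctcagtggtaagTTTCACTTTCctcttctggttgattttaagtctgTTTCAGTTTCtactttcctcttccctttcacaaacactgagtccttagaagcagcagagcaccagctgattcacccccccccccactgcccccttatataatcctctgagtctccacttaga
H2bc14: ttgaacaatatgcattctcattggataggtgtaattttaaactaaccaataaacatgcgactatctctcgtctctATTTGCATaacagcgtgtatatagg

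Immediate-early genes, transcription factors switched on within minutes of stimulation, also had mostly negative differences. Of 24 measured genes 22 were higher in the Evi line, 1 passed and 9 had an unadjusted p below 0.05, all higher in the Evi line (7.94% of all genes were), and the median was -0.22. Fos, a subunit of the AP-1 factor, was at 7.08, 7.02 and 7.19 on Rspo3-iECKO and 7.21 and 7.03 on Rspo3-WT arrays, against 8.16, 7.99 and 7.48 on Evi-WT and 8.54 and 8.05 on Evi-iECKO arrays. The lines did not overlap (-0.98, SE 0.17, limma adjusted p = 0.0205), and the call was lost without Rspo3-iECKO 1 or 2, with an adjusted p of up to 0.0562. Egr2, Egr3 and Egr1, zinc finger factors of the same early response, differed by -1.09 (limma adjusted p = 0.0526), -0.86 (0.059) and -0.63 (0.0665). Fosl2, an AP-1 subunit outside the list, passed at -0.85 (SE 0.15) and lost its call without Rspo3-iECKO 1, Rspo3-WT 1 or Evi-iECKO 1. Further probes of Fosl2 differed by -0.28 and -0.34. The call of Fosl2 was also lost without normalization between arrays, with median scaling and with the mean of all probes. The immediate-early list's mean centred level did not overlap, at -0.23 to -0.04 on Rspo3 arrays and 0.01 to 0.28 on Evi arrays. Without normalization between arrays its median was 0.13 and with median scaling 0.06, in both cases 0.08 below the median of all genes, and Fos did not pass in either. The list's median level was 7.16. Genes of brightness bin 9, with a median level of 7.05, had a median of 0.54 without normalization between arrays. The labels do not give the time from dissection to lysis.

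Heat shock genes split within the list. Of 17 measured genes 10 were higher in the Evi line and none passed, while 8 had an unadjusted p below 0.05, 4 in each direction, against 15.1% of all genes. The median was -0.08, and 0.28 without normalization between arrays, where it lay 0.08 above the median of all genes. The list's median level was 6.33. Genes of brightness bin 8, with a median level of 6.22, had a median of 0.47 in that setting. Hspa1a, an inducible Hsp70, differed by -1.70 (SE 0.39, limma adjusted p = 0.0603) but ranged from 5.12 to 7.04 on Rspo3 and from 5.88 to 8.17 on Evi arrays. Ahsa1, a cochaperone of Hsp90, differed by 0.61 (0.0807) and Hspa8, the constitutive Hsp70, by 0.66 (0.113). Among 16 glucocorticoid response genes 14 had higher means in the Evi line, with a median of -0.22 that became 0.19 without normalization between arrays and 0.13 with median scaling, in both 0.01 below the median of all genes. Their median level was 6.40, near that of brightness bin 8. An unadjusted p below 0.05 held for 3 of them, all higher in the Evi line (7.94% of all genes were). Errfi1, an inhibitor of the EGF receptor, passed (-0.80, limma adjusted p = 0.0409). That call was kept without Evi-iECKO 1 and in no other fit with 1 array left out.

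Endothelial genes differed at single members. Of 21 genes that mark endothelium of every kind 14 were higher in the Rspo3 line and 2 passed, both higher in that line (0.489% of all genes were). An unadjusted p below 0.05 held for 6, all higher in the Rspo3 line (28.6%, against 7.19% of all genes in that direction). Icam2, an adhesion molecule of endothelial junctions, was at 10.02, 10.04 and 10.01 on Rspo3-iECKO and 9.75 and 9.99 on Rspo3-WT arrays, against 9.25, 9.48 and 9.04 on Evi-WT and 9.33 and 9.26 on Evi-iECKO arrays (0.67, SE 0.13, limma adjusted p = 0.0296). Tie1, an orphan receptor that modulates angiopoietin signalling, differed by 0.69 (SE 0.15, limma adjusted p = 0.0444) without overlap. Kdr, the main VEGF receptor, differed by 0.42 (0.204). The call of Icam2 was kept only without Evi-WT 1, 2 or 3 among the fits with 1 array left out, and that of Tie1 only without Rspo3-iECKO 3 or Evi-iECKO 2. The median of the list was 0.07, and 0.53 without normalization between arrays and 0.46 with median scaling, in both 0.33 above the median of all genes. The list was bright, with a median level of 8.54. Genes of brightness bin 10, with a median level of 8.49, had a median of 0.52 without normalization between arrays, close to that of the list.

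Among 12 aerocyte genes Tbx2, a T-box transcription factor, and Icam2 passed, both higher in the Rspo3 line (0.489% of all genes were). An unadjusted p below 0.05 held for 4, all higher in the Rspo3 line (33.3%, against 7.19% of all genes in that direction). The median was 0.19, 0.02 without Evi-WT 3 and 0.66 without normalization between arrays. Tbx2 was at 8.61, 7.86 and 7.68 on Rspo3-iECKO and 7.65 and 7.99 on Rspo3-WT arrays, and at 6.92, 6.93, 6.47, 7.12 and 6.98 on the Evi arrays (1.02, SE 0.18, 2.03-fold, limma adjusted p = 0.0236), with 1.04 and 1.0 in the Cre-negative and deleted arms. Its call was lost without Rspo3-WT 1 or 2. The other 10 measured aerocyte genes did not pass, and the list's mean centred level overlapped, at -0.02 to 0.32 on Rspo3 and -0.53 to 0.16 on Evi arrays. General capillary genes had a median of 0.05, which became -0.10 without Evi-iECKO 1, 0.59 without normalization between arrays and 0.52 with median scaling, in the latter settings 0.38 above the median of all genes. The aerocyte and general capillary lists were bright, with median levels of 8.37 and 8.67. Genes of brightness bin 10 had a median of 0.52 without normalization between arrays. None of the 15 general capillary genes passed, with Clec1a, a C-type lectin receptor, at 0.63 (limma adjusted p = 0.0662) and Fmo1, a monooxygenase, at 0.63 (0.0662) the closest.

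Of 13 arterial genes 8 had higher mean levels in the Evi line, with 1 passed and a median of -0.14 that became 0.29 without normalization between arrays and 0.22 with median scaling. In both settings the median lay 0.08 above that of all genes. The list's median level was 6.49. Genes of brightness bins 8 and 9, with median levels of 6.22 and 7.05, had medians of 0.47 and 0.54 without normalization between arrays. The list's 0.29 lay below both. An unadjusted p below 0.05 held for 5 genes higher in the Evi line and 2 in the Rspo3 line (53.8%, against 15.1% of all genes). The list's mean centred level did not overlap, at -0.21 to 0.01 on Rspo3 and 0.05 to 0.21 on Evi arrays. Bmx, a tyrosine kinase of arterial endothelium, was at 4.81, 5.23 and 5.39 on Rspo3-iECKO and 5.27 and 6.19 on Rspo3-WT arrays, and at 6.71, 6.36, 6.53, 6.52 and 6.44 on the Evi arrays (-1.07, SE 0.19, limma adjusted p = 0.025). A second probe of Bmx differed by -0.66, and the call was lost without Rspo3-iECKO 1 or 2, Rspo3-WT 1 or Evi-iECKO 1. Dimmer probes of Bmx differed by -0.23 and -0.15, and its call was also lost without the filter on dim probes and with the mean of all probes. Mgp, an inhibitor of calcification, Jag1, a Notch ligand, and Gja5, the connexin of arteries, differed by -1.43, -0.56 and -0.51 (limma adjusted p = 0.0658, 0.0782 and 0.168). The arterial connexin Gja4 differed by 0.42 in the other direction (0.198). In bulk samples a smaller share of one kind of cell and less RNA per cell cannot be told apart. Venous genes had a median of -0.26, which became 0.08 without normalization between arrays and 0.01 with median scaling, in both 0.13 below the median of all genes. None of 11 venous genes passed. None of 9 lymphatic genes passed. The venous and lymphatic lists each held 3 genes at an unadjusted p below 0.05, against 15.1% of all genes.

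Of 19 genes of angiogenesis and sprouting, Tie1 passed in one direction and Vegfc, the main ligand of the lymphatic VEGF receptor, in the other (-0.69, SE 0.14, limma adjusted p = 0.0393). Vegfc was at 5.99, 6.47 and 6.13 on Rspo3-iECKO, 6.09 and 6.01 on Rspo3-WT, 6.85, 6.47 and 6.83 on Evi-WT and 7.07 and 6.77 on Evi-iECKO arrays, and its call was kept only without Evi-WT 2 or Evi-iECKO 2. Angpt2, the context-dependent antagonist of Tie2, differed by -0.58 without overlap (0.0714) and Esm1, a proteoglycan of tip cells, by -0.89 (0.103). The median of the list was 0.11, 0.02 without Evi-iECKO 2 and 0.47 without normalization between arrays.

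The Wnt pathway, the one both lines were built to alter, differed at 3 named genes. Wif1, a secreted inhibitor that binds Wnt ligands, was at 4.95, 4.88 and 5.01 on Rspo3-iECKO and 5.50 and 5.12 on Rspo3-WT arrays, and at 4.31, 4.15, 4.68, 4.13 and 4.21 on the Evi arrays, 1 of which was above background. The lines did not overlap (0.85, SE 0.14, limma adjusted p = 0.0166), and the call was lost without Rspo3-WT 1, with an adjusted p of 0.0584. Prickle1, a component of planar cell polarity signalling, differed by 0.64 (SE 0.13, limma adjusted p = 0.0393), with 0.42 in the Cre-negative and 0.86 in the deleted arm, and was kept only without Evi-WT 1 or 3. Fzd5, a Frizzled receptor, was higher in the Evi line (-0.83, SE 0.18, limma adjusted p = 0.0464), at 6.33 to 6.86 on Evi and 5.18 to 6.14 on Rspo3 arrays. Its call was kept in 6 of 24 settings, and without 1 array only when that was Evi-iECKO 1, and of 3 further probes of Fzd5 2 were detected on no array, while the other, dim and detected on 8, differed by 0.03. Axin2, the feedback target read most often for this pathway, differed by 0.28 (SE 0.21, 0.577). Over the list of 17 targets 12 were higher in the Evi line with a median of -0.03, over 18 R-spondin and receptor genes 12 with a median of -0.08, and none of 10 genes of ligands and secretion passed, with a median of -0.07 and none at an unadjusted p below 0.05. Without normalization between arrays these medians became 0.25, 0.08 and 0.07. Relative to the median of all genes the first then lay 0.05 above, and the other lists each 0.13 below. The lists were dim, with median levels of 4.69, 4.66 and 4.79. Genes of brightness bins 4 and 5 had medians of 0.06 and 0.12 in that setting. An unadjusted p below 0.05 held for 23.5% of the targets and 22.2% of the R-spondin and receptor genes, against 15.1% of all genes.

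**Figure D5:**
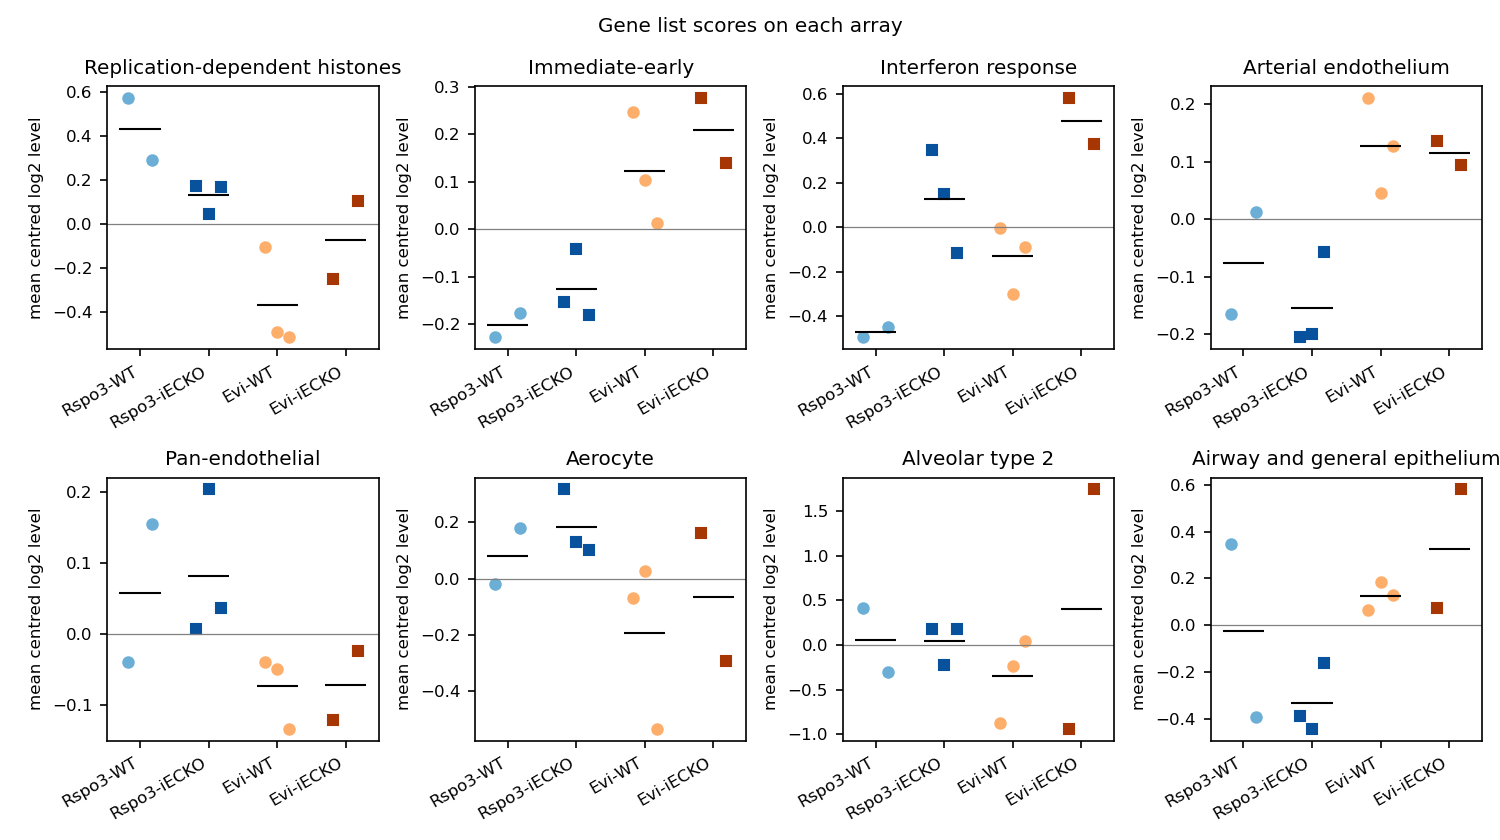
Mean centred log2 level of 8 gene lists on each array by group, with points for arrays and bars for group means. Immediate-early genes (-0.23 to -0.04 and 0.01 to 0.28) and arterial genes (-0.21 to 0.01 and 0.05 to 0.21) separate the lines. Interferon genes separate them within each arm only, and alveolar type 2 genes spread from -0.94 on Evi-iECKO 1 to 1.74 on Evi-iECKO 2.

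Markers of other lung cells were present and uneven. Scgb1a1, the secretoglobin of airway club cells, had the largest difference of any gene that passed (-2.19, SE 0.43, 4.57-fold, limma adjusted p = 0.0351). It was at 5.84, 5.69 and 7.18 on Rspo3-iECKO and 7.79 and 5.06 on Rspo3-WT arrays, and at 8.35, 8.59, 7.86, 8.55 and 9.01 on the Evi arrays, so that the highest Rspo3 array lay just under the lowest Evi array. The call was kept only without Rspo3-iECKO 3, Rspo3-WT 1 or Evi-WT 3. Cyp2f2, a cytochrome of the same cells, differed by -0.66 (0.164), and no other of the 9 airway and epithelial genes passed. Of the 13 alveolar type 2 genes none passed and 2 had an unadjusted p below 0.05, a share close to the 15.1% of all genes. Sftpc, the surfactant protein of these cells, ranged from 6.81 to 8.14 on Rspo3 arrays and was 4.45 on Evi-WT 1, 4.16 on Evi-iECKO 1 and 9.07 on Evi-iECKO 2. The airway list's mean centred level was 0.58 on Evi-iECKO 2 and 0.35 on Rspo3-WT 1, and its part in the other differences was not tested. Leukocyte lists held no gene that passed, with 10 of 12 macrophage and monocyte genes and 6 of 7 class II histocompatibility genes higher in the Evi line and medians of -0.13 and -0.13. The first of these became 0.04 without normalization between arrays, which is 0.16 below the median of all genes. The macrophage and monocyte list was dim, with a median level of 4.50. Genes of brightness bin 3, with a median level of 4.48, had a median of 0.06 in that setting. The class II level was 0.57 on Evi-iECKO 2 and between -0.12 and 0.02 on the other Evi arrays.

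Lists of basal cell functions had medians near 0 after quantile normalization only. Without normalization between arrays the medians were 0.58 for the respiratory chain, 0.61 for the proteasome and 0.48 for the ribosome, which is 0.37, 0.41 and 0.27 above the median of all genes. The lists were bright, with median levels of 7.37, 7.33 and 9.02. Genes of brightness bins 9 and 10 had medians of 0.54 and 0.52 in that setting. The mean centred level of the respiratory chain list did not overlap, at -0.00 to 0.10 on Rspo3 and -0.15 to -0.01 on Evi arrays. Of 67 respiratory chain and ATP synthase genes 44 were higher in the Rspo3 line with a median of 0.08, and Ndufa11, a subunit of complex I, passed (0.78, SE 0.15, limma adjusted p = 0.0347), with a call lost in 6 of the 10 fits without 1 array. Of 56 cytosolic ribosome genes Rplp2 passed (0.54, limma adjusted p = 0.0441) and lost its call whichever array was left out. Of 28 proteasome genes 17 were higher in the Rspo3 line with a median of 0.08, and Psmd2, for which only a bound is given above, was the 1 that passed. Psmb3 (0.53, limma adjusted p = 0.162) and Psmc6 (-0.51, 0.193) were the next by p. Over all 43 lists 715 genes were measured and 22 passed, where 0.768% of all genes did, a count of 5 without Rspo3-iECKO 1, of 6 without Rspo3-WT 1 and of 33 without Evi-iECKO 2, and of 9 to 18 without any other array.

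The neighbourhoods of the floxed alleles were read separately, because the alleles themselves differ between the lines there. Of 25 measured genes on either side of Rspo3 on chromosome 10 none passed, and 6 of these 50 had an unadjusted p below 0.05 (12%, against 15.1% of all genes). Within 10 genes on either side the count was 5 of 20 (25%). Of the 25 measured genes before Wls on chromosome 3, after which none was measured, none passed and 3 had an unadjusted p below 0.05 (12%). Without Evi-WT 2, 1 gene of the 75 passed. Among 9 measured genes known to vary between mouse strains or substrains none passed, and Nnt, which is truncated in some C57BL/6 stocks, differed by 0.14 (limma adjusted p = 0.677).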

How the data were processed

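Lung endothelial cells of 10 samples were profiled on Illumina arrays, from cDNA amplified by single primer isothermal amplification, per the labels' protocols. The authors deposited linear scanner intensities and a detection p-value for each probe and array in the non-normalized table, per the file headers, and the method behind the detection p-values is not named there. The authors also deposited a table of normalized intensities, used only as an alternative. Its column medians were 101.8 to 105.2 and its ranks followed the scanner values (Spearman correlation at least 0.9996 on each array), so its scale is linear, while its normalization and centring stay unknown.

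From the deposited intensities log2 values were computed with limma 3.58.1 in R 4.3.3 by neqc, which corrects background from the detection p-values, adds an offset of 16 and normalizes by quantiles. The filter kept 30017 of 46237 probes, those detected (p below 0.05) on 2 or more arrays, and the brightest named probe stood for each of 16144 genes. Gene names came from the platform annotation, updated through RefSeq. The model held line and deletion, and 4 group means gave the arms and their difference, with Benjamini-Hochberg adjustment over all genes. Array measures were tested by exact permutation of line labels within arms. The code was tested on simulated data. Beads and spots behind a value are not given, so the number of arrays limits precision.

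The comparison, the gene lists and their members were chosen with earlier results of these data known. Named genes were the targeted, Cre driver and sex-linked genes, the 15 of smallest p that passed per direction (symbols that only number a clone passed over), up to 5 per direction for each arm and up to 4 of smallest p per list. Others that are named, such as H2bc4, H2bc14, Gja4, Axin2 and Pecam1, were added after their values were seen. Same-numbered arrays of different groups had correlated deviations of -0.12 to 0.13, so numbers were not taken as pairs. Alternatives changed the background, normalization, filter, probe choice, model and threshold, and left out each array.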

Additional observations from a re-analysis of the deposited data

Results flagged for a closer look

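Among 188 sets of 5 values, the arrays of 1 line for a gene, a list or an array measure, 10 held an array that stood apart from the other 4 by the gap between neighbours. Chance gives about 1 in 20 such sets. Evi-iECKO 2 was high for the airway and general epithelium list, at 0.58 against 0.07 to 0.18 on the other Evi arrays, and for class II histocompatibility genes, at 0.57 against -0.12 to 0.02. Evi-WT 2 was low for venous genes, at -0.36 against 0.17 to 0.26, and high for the 3 measured mesothelium genes, at 0.39 against 0.06 to 0.09. Evi-iECKO 1 had an inferred background standard deviation of 0.916 against 1.16 to 1.25, and its level of the Y-linked Kdm5d was 4.62 against 4.12 to 4.23. Meaf6 was at 4.38 on Evi-WT 1 against 4.10 to 4.16.

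In the Rspo3 line Rspo3-WT 1 stood at -0.068 for lymphocyte genes against -0.01 to 0.01 and at 0.045 for Wnt ligands and secretion against -0.07 to -0.04. Rspo3-iECKO 2 stood at 0.13 for hypoxia and glycolysis genes against 0.02 to 0.04. No gene passed for a difference between the arms.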

How the results depend on the processing

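The count of 124 genes between lines became 218 with normexp, 199 without background correction, 3446 without normalization between arrays, 2615 with median scaling, 235 with the authors' normalized values, 69 without the filter on dim probes and 247 with a trended robust variance prior. It was 5 at an adjusted p below 0.01 and 396 below 0.1. The Cre-negative count of 6 became 11 without background correction, 44 without normalization, 45 with median scaling and 31 with the trended prior, and 0 without the filter, with the mean of all probes, with Xist as covariate and below 0.01. The count of 4 in the deleted arm became 8 with normexp, 11 without background correction, 3821 without normalization, 2820 with median scaling, 32 with the authors' values, 35 with the trended prior and 86 below 0.1, and 0 without the filter, with the mean of probes, with array weights and below 0.01. The 22 list genes became 35, 270, 229, 8, 47, 1 and 50 with normexp, no normalization, median scaling, no filter, the trended prior, 0.01 and 0.1. Genes beside the floxed loci went from 0 to 13 without normalization, 11 with median scaling, and 1 with line alone, with the trended prior or below 0.1. With 1 array left out, the counts ranged from 34 to 151 between lines, 0 to 9 and 0 to 109 in the Cre-negative and deleted arms, 0 to 6 for the difference between arms, 5 to 33 for list genes and 0 to 1 beside the loci. The difference in detected share was 3.47 points and 3.95 at a detection p below 0.01.

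The replicate number as a replicate block gave 61 genes between lines, 0 in each arm and 12 list genes, although the numbers did not pair the arrays, since 2 arrays correlated best with their own number. Directions turned without normalization between arrays for 2 genes, Gja5 to 0.019 and H2bc4 to 0.012, neither of which had passed. The cause of these changes was not tested, apart from the number of genes or arrays that a setting removes. Signal over background limits genes such as Psmd2 and Prdx3, which gave only a bound.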

Other observations

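Probes with no gene name lie outside the gene counts. Of 5771 such probes past the filter, 29 passed higher in the Rspo3 line and 7 higher in the Evi line when all 30017 kept probes were tested by limma. Over all kept probes the counts were 226 and 76.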
